A study of Mus musculus with 2 samples.

Results

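Hnf4a and Hnf4g encode HNF4 alpha and HNF4 gamma, the nuclear receptors of the HNF4 family in mice. They were taken by name from the GENCODE M21 annotation, which makes 2 of 21938 protein-coding genes, and each was examined over its gene body plus 50 kb on either side in mm10. The assay was DNase-seq, a measure of open chromatin, on whole kidney of female B6CASTF1/J mice aged 36 days, the first-generation hybrids of C57BL/6J and CAST/EiJ. The series held 2 libraries, biological replicates 1 and 2 of 1 group, with no treatment, second tissue or control. Per the labels the females have numbers of their own while the donor entry is the same for both samples, so that these libraries come from separate animals is known only from the numbering. With 1 group of n = 2 no test could be made, and the values of both libraries are given side by side.

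HNF4 proteins bind DNA as homodimers at direct repeats of a hexamer spaced by 1 base, the DR1-type sites that RXR heterodimers and COUP-TF receptors also recognise. HNF4 alpha is a regulator of liver, intestine, pancreatic islet and the proximal tubule of the kidney, where it acts on genes for solute transport, gluconeogenesis and fatty acid oxidation. Its gene has a proximal promoter, P1, and a distal promoter far upstream, P2, which give proteins with different amino ends. P1 is the promoter described for adult liver and kidney and P2 the one described for pancreatic islets, with both described in intestine. HNF4 gamma is a paralog with a highly similar DNA-binding domain, described mainly in intestine, kidney and pancreas.

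DNase I cuts nuclear DNA where nucleosomes are absent, so a peak marks an accessible region and its height, the authors' signal value, how strongly it was cut. A footprint is a short stretch inside an accessible region that is protected from cutting. The authors also gave a false discovery rate (FDR) for cutting in intervals along the genome. Replicate 1 had 124504 peaks with a median height of 1.33 and 375848 footprints. Replicate 2 had 68056 peaks with a median height of 1.46 and 223827 footprints. Heights were whole multiples, within 0.02 of a step, of 0.00928 in replicate 1 and 0.0102 in replicate 2. Overlapping peaks of both libraries formed 65134 shared regions, which held 52.7% of the peaks of replicate 1 and 96.3% of those of replicate 2. In shared regions the median log2 ratio of heights, replicate 2 over replicate 1, was -0.606, and 92.4% were higher in replicate 1, so heights of the members are also given as the percentage of the library's peaks that were lower. In whole tissue, fewer cells with an open site and less cutting per cell cannot be told apart. A promoter peak in both libraries was found for 60.7% of all protein-coding genes. Among marker genes it was found for 10 of 10 of kidney epithelium, against 2 of 4 for podocytes, 1 of 6 for hepatocytes, 0 of 6 for intestinal epithelium, 1 of 4 for endocrine pancreas and 1 of 3 for adrenal cortex.

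Hnf4a (ENSMUSG00000017950.16) lies on the plus strand of chromosome 2 from 163506808 to 163572910, and Hnf4g (ENSMUSG00000017688.14) on the plus strand of chromosome 3 from 3508030 to 3658052. Starts of annotated transcripts within 500 bp of each other were joined, which gave 3 start-site groups for Hnf4a and 2 for Hnf4g. The first group of Hnf4a is the start of Hnf4a-205 at 163506808, taken here as P2. The second is the starts of Hnf4a-201, Hnf4a-202 and Hnf4a-203 from 163546817 to 163547188, taken here as P1, and distances are counted from its last start. The third is the start of Hnf4a-204 at 163550083, which is 2.9 kb downstream of P1, while P2 is 40.4 kb upstream of it. The groups of Hnf4g are single starts at 3508030 and 3634150, 126 kb apart. The 200 bases before 4 of these starts are printed below because the comparison of alternative starts rests on them. They are the plus strand of the C57BL/6J reference, so the CAST/EiJ allele is not shown, at chr2:163506608-163506807, chr2:163546988-163547187, chr2:163549883-163550082 and chr3:3507830-3508029, with capitals for bases inside a footprint in both libraries.
Hnf4a P2: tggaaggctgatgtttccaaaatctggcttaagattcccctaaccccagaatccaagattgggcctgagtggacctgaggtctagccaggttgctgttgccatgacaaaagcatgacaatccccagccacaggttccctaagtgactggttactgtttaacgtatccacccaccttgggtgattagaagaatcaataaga
Hnf4a P1: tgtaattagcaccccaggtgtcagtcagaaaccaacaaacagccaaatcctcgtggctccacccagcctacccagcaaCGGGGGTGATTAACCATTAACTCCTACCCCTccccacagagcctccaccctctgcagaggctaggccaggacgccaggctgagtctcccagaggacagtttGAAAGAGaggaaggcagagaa
Start of Hnf4a-204: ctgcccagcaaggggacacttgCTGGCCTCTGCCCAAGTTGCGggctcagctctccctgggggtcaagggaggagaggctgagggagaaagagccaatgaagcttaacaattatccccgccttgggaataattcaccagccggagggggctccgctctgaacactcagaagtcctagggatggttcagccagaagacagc
Hnf4g first start: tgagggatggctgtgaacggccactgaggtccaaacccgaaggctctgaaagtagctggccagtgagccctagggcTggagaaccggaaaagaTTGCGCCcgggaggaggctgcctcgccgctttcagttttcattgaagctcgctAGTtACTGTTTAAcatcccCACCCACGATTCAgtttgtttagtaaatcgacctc
Capitals cover 38 bases at P1, 21 at the third start of Hnf4a and 33 at Hnf4g, and 0 at P2.

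P1 was open in both libraries and P2 was not detected in either. At P1 the highest peak within 1 kb was 6.1 in replicate 1 and 3.63 in replicate 2, higher than 90.5% and 80.8% of the peaks of their libraries. At the third start the peak was 5.7 in replicate 1 and 4.42 in replicate 2, higher than 89.7% and 84.7%. P1 was the higher of these neighbours in replicate 1 and the third start in replicate 2, so their order was not stable over the libraries. Within 1 kb of P2 there was no peak in either library, in the stricter or the wider peak set, no interval at an FDR of 0.05 or less, and no footprint.

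P2 lay in a long stretch without peaks. The nearest peaks were 4.31 kb before it and 25.3 kb after it in replicate 1, and 24.9 kb before it and 25.3 kb after it in replicate 2. The gap was thus 29.6 kb in replicate 1 and 50.2 kb in replicate 2. In the wider peak set the nearest peak of replicate 2 was 4.33 kb before P2 and the gap was 29.6 kb in both libraries, so the longer gap of replicate 2 holds for the stricter set. From P2 to P1 there were 8 regions with a peak, 4 shared and 4 in replicate 1 alone, and all 8 had their middle between 15 and 5.4 kb before P1. A start-site group with a peak in both libraries was found for 34.3% of the 52546 groups of protein-coding genes. Among the 13162 genes with at least 2 groups, a first group closed in both libraries with a later group open in both, the pattern of Hnf4a, occurred in 5.77%.

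**Figure D1:**
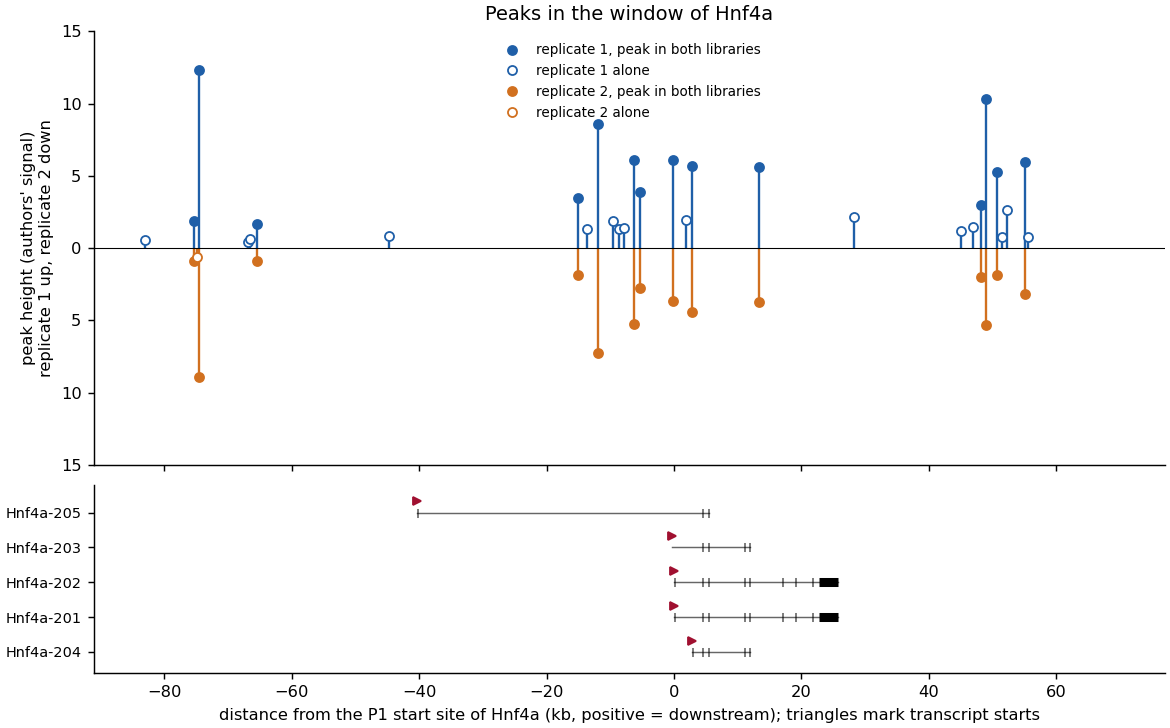
Peak heights (authors' signal; replicate 1 upward, replicate 2 downward) against distance from the P1 start of Hnf4a in kb, with filled points for regions with a peak in both libraries, open points for 1 library alone, and exons of the 5 transcripts below. No peak stands at the start of Hnf4a-205 (P2), and the peaks between P2 and P1 stand between 15 and 5.4 kb before P1.

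The FDR intervals separated open from closed starts in the same way. In replicate 1 the order of the open starts by FDR was not their order by height. At P1 the lowest FDR was 5.14e-17 in replicate 1 and 2.15e-20 in replicate 2, and 377 and 381 bases were at 0.05 or less, of which 377 were in common. At the third start the lowest FDR was 1.61e-17 in replicate 1 and 1.8e-25 in replicate 2, with 543 and 526 bases at 0.05 or less and 500 in common. Of these, 420 lay within 500 bp of the third start. The others were at the edge of a peak found in replicate 1 alone, 1.95 high and 1.85 kb downstream of P1. At both starts the FDR was thus lower in replicate 2, the library with the lower peak there. At the first start of Hnf4g it was 9.56e-35 in replicate 1 and 2.07e-10 in replicate 2, with 828 and 552 bases and 552 in common. The second start of Hnf4g, like P2, had no interval in either library.

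**Figure D2:**
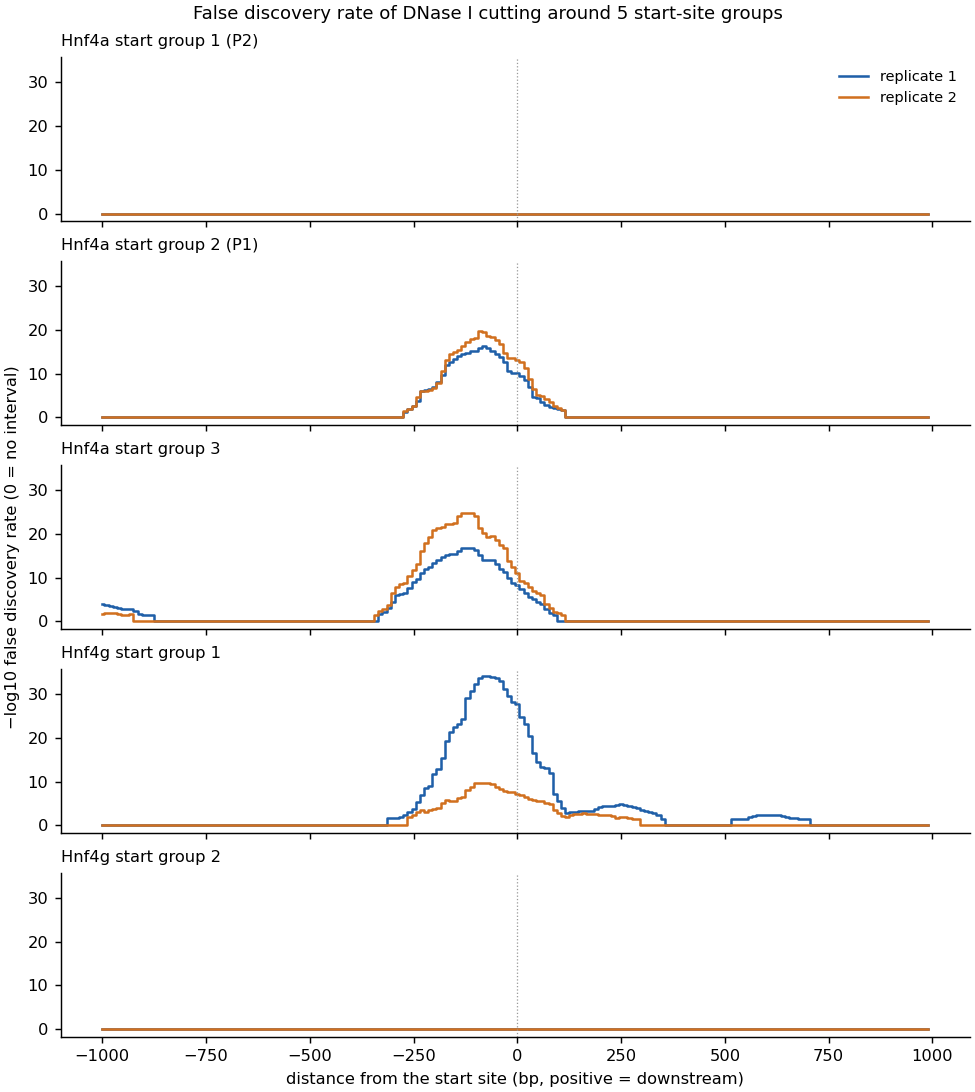
Size of the FDR exponent (−log10, 0 where the authors list no interval) against distance from the start in bp for the 5 start-site groups, one line per replicate. The lines are flat at 0 for P2 and for the second start of Hnf4g, the summit of replicate 2 is the higher one at P1 and the third start of Hnf4a, and that of replicate 1 at the first start of Hnf4g.

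Of the starts of Hnf4g, the first was open and the second was not detected. Its peak was 3 in replicate 1 and 0.907 in replicate 2, higher than 77.4% and 24.8% of the peaks of their libraries. The replicates differed more here than at Hnf4a. The height in replicate 1 was 3.31 times that in replicate 2 (log2 ratio -1.73), and 0.918% of all shared regions had a lower ratio. A second peak, 0.547 high and 0.239 kb downstream of the start, was found in replicate 1 alone. A peak at the first group alone and none in either library at any later one, as at Hnf4g, occurred in 33% of the genes with at least 2 groups.

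The open starts of both members held fewer CpGs than the median open start. CpGs were counted over 500 bp on either side of the lowest-coordinate start of each group, which for P1 is that of Hnf4a-203. The ratio of observed to expected CpG was 0.223 at P2, 0.231 at P1 and 0.2 at the third start of Hnf4a. It was 0.463 at the first start of Hnf4g and 0.241 at the second. The median was 0.668 for groups open in both libraries, 0.219 for those open in neither and 0.287 for all groups. All 3 groups of Hnf4a, open or closed, were near the median of closed starts, and the first start of Hnf4g was between the medians, above 69.2% of all groups.

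Footprints placed the protected bases within the open starts. At P1 the widest footprint ran from 122 to 86 bp before the start in replicate 1 (37 bp, wider than 97.6% of the library's footprints) and from 124 to 92 bp in replicate 2 (33 bp, wider than 96.7%). It covered the capitals of the first block printed for P1. A second, narrow footprint was matched at 21 to 15 bp before the start in replicate 1 and 22 to 15 bp in replicate 2, and another, 58 to 51 bp before it, was found in replicate 1 alone. At the third start of Hnf4a a footprint ran from 181 to 158 bp before the start in replicate 1 (24 bp) and from 178 to 154 bp in replicate 2 (25 bp). In these 200 bases each library had 1 further footprint, which did not overlap one of the other library. At Hnf4g a footprint from 50 to 23 bp before the start in replicate 1 (28 bp) was matched by footprints from 54 to 42 bp (13 bp) and 35 to 18 bp (18 bp) in replicate 2. A narrow footprint was also matched at 109 to 100 bp before the start in replicate 1 and 107 to 101 bp in replicate 2.

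**Figure D3:**
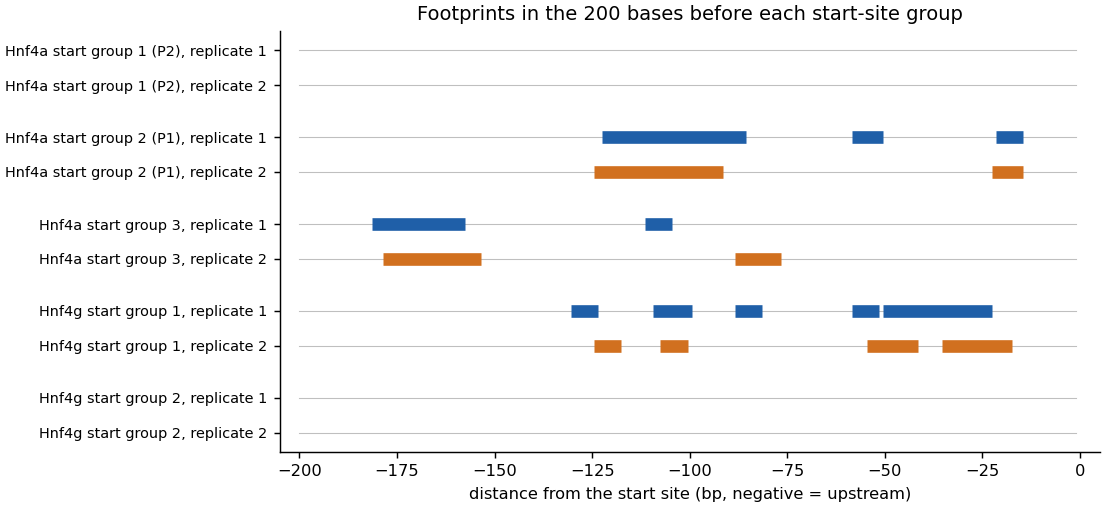
Footprints (bars) in the 200 bases before each start-site group, by replicate, against distance from the start in bp. Bars of both replicates overlap at 122 to 92 bp before P1, 178 to 158 bp before the third start of Hnf4a and in the last 50 bp before the first start of Hnf4g, and P2 and the second start of Hnf4g have none.

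The footprint at P1 spans a direct repeat of a hexamer other than AGGTCA, the hexamer of the DR1 search, which had no match at P1. The letters attaaccattaac, the hexamer ATTAAC repeated after 1 base, lie 114 to 102 bp before the start and inside the footprint in both libraries. The same repeat on either strand was in 16 of the 65134 windows of 200 bp centred on shared regions (0.0246%) and in 3 of the 52546 windows of 200 bp before start groups (0.00571%). The repeat was picked out after the sequence had been seen, so these shares describe how rare it is and test nothing.

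The closed start of Hnf4a and the open start of Hnf4g share a stretch of sequence. Among the 10 pairs of the 5 start windows, the longest common stretch was gttactgtttaac (13 bp), 52 to 40 bp before P2 and 53 to 41 bp before the first start of Hnf4g. At Hnf4g 11 of its 13 bases lay in a footprint in both libraries, and at P2 none did. A further common stretch, ccacccac (8 bp), lay at the same offset in both, 35 to 28 bp before P2 and 36 to 29 bp before Hnf4g, with 7 of 8 bases in a footprint in both libraries at Hnf4g. From the first stretch to the last, 22 of 25 aligned bases were identical (88%), against 68 of 199 (34.2%) over the whole window at that offset. The span was set by these stretches, so their 13 and 8 bases are identical by construction and the contrast tests nothing. The 13-base stretch was in 4 of the 52546 start windows (0.00761%), namely P2, the first start of Hnf4g, the first of Cyp2c68 and the second of Glis1. Of these, 1 was open in both libraries. It was in 7 of 65134 windows of shared regions (0.0107%). P2 also shared gggtgatta (9 bp) with P1, 24 to 16 bp before P2, where it had no footprint, and 119 to 111 bp before P1, where all 9 bases lay in the P1 footprint. These stretches were likewise chosen after the sequences had been compared.

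Hnf4a had more open regions for the length of its window than most genes. In its window of 166103 bp, chr2:163456808-163622910, there were 29 peaks in replicate 1 and 15 in replicate 2, which gave 14 shared regions, 15 regions in replicate 1 alone and 1 in replicate 2 alone. The shared regions came to 8.43 per 100 kb, against a median of 4.51 and quartiles of 1.47 and 8.42 over all protein-coding genes, a density above that of 75.1% of them. Shared heights ran from 1.68 to 12.3 in replicate 1 (median 5.65) and from 0.917 to 8.95 in replicate 2 (median 3.4). All 14 were higher in replicate 1, and their median log2 ratio of -0.663 was close to the -0.606 of all shared regions. Regions found in replicate 1 alone were lower, from 0.436 to 2.61 with a median of 1.32. Of these 15, 8 overlapped a peak of the wider set of replicate 2, and the share over the whole genome is not given here.

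Of the 14 shared regions, 7 were within 1 kb of a start, 3 in introns and 4 between genes. The same shares over all shared regions are not given here. Starts of Hnf4a account for 2 of the 7, Hnf4aos for 2, and neighbouring genes for 3. Hnf4aos is an antisense transcript on the minus strand whose start at 163541720 lies between P2 and P1. DNase-seq carries no strand, so openness there cannot be assigned to Hnf4a or Hnf4aos. By place, 3 shared regions lay upstream of the gene, 7 in it and 4 downstream.

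The highest shared region of the window belongs by position to a neighbour. It stood 74.6 kb upstream of P1 at chr2:163472521-163472720, at the start of Fitm2, a gene for a lipid droplet protein of the endoplasmic reticulum, with heights of 12.3 and 8.95. It held the letters gcgcatgc, a match to the NRF1 motif, inside a footprint of both libraries. A match to the CTCF core motif, agggggc on the minus strand, also lay inside a footprint of both libraries there. The NRF1 letters were in the centre of 1 of the 14 shared regions of Hnf4a and of 1.58% of all shared regions. For CTCF core these were 4 of the 14 and 8.16%. At its downstream end the window held the start of Ttpal, with heights of 5.93 and 3.17 and located 55.1 kb from P1. A lower shared region, 75.3 kb upstream of P1, covered the start of 2310001K24Rik, an antisense gene on the plus strand at 163471957 that overlaps Fitm2. It had heights of 1.86 and 0.917, and a peak in replicate 2 alone (0.591) lay next to it.

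Within the gene, the highest shared region was not at a start but in the intron between P2 and P1. It lay 11.9 kb upstream of P1 at chr2:163535081-163535400, inside both Hnf4a and Hnf4aos, with heights of 8.55 and 7.29, above 94% and 92% of the peaks of their libraries. The region within 1 kb of the Hnf4aos start, 6.27 kb upstream of P1 at chr2:163540741-163541100, had heights of 6.11 and 5.24. Both were higher than P1 in each library, although the second exceeded it in replicate 1 by 1 step of the scale. The other region at the Hnf4aos start, 5.4 kb upstream of P1, had heights of 3.86 and 2.74. A region 15 kb upstream of P1, the first after the gap, had 3.45 and 1.85. Downstream of the starts, an intronic region 13.3 kb from P1 at chr2:163560361-163560640 had 5.6 and 3.76, close to the values at P1 itself.

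Past the end of the gene stood a cluster of 3 shared regions between Hnf4a and Ttpal. The highest, 49 kb from P1 at chr2:163596041-163596300, had heights of 10.3 and 5.35, the second highest of the window in replicate 1 and the third in replicate 2. Those beside it had 2.95 and 2 at 48.2 kb, and 5.26 and 1.86 at 50.7 kb. The last had the most unequal heights of the window, with a log2 ratio of -1.50 that was above only 2.81% of shared regions. The highest peak that was not shared, 2.61 in replicate 1 at 52.2 kb, lay in the same stretch and overlapped a peak of the wider set of replicate 2.

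The central 200 bases of the intronic region (chr2:163535141-163535340) and of the downstream region (chr2:163596071-163596270) are shown as the highest shared regions away from starts of other genes. Capitals again mark bases in a footprint in both libraries.
Hnf4a intron, 11.9 kb upstream of P1: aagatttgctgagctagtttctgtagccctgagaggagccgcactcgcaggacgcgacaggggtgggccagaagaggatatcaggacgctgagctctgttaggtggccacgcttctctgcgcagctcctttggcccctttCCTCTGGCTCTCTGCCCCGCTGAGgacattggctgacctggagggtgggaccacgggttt
Hnf4a downstream, 49 kb from P1: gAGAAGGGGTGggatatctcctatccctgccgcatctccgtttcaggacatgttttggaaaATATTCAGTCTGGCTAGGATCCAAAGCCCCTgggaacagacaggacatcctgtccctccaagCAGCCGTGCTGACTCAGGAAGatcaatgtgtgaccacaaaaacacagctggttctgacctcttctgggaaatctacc
The intronic region had 1 block of 24 such bases in this window. The downstream region had 62 in 3 blocks, and the last of them holds tgactca, a match to the AP-1 motif, inside the footprint of each library.

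Hnf4g was poor in open regions. In its window of 250023 bp, chr3:3458030-3708052, there were 7 peaks in replicate 1 and 2 in replicate 2, with 2 shared regions and 5 in replicate 1 alone. At 0.8 shared regions per 100 kb it exceeded 19% of protein-coding genes. Apart from its start, the shared region lay in the long first intron, 104 kb downstream, with heights of 0.956 and 0.672, above 35.9% and 10.2% of the peaks of their libraries. The highest peak of the window that was not shared, 1.78 in replicate 1, stood 106 kb downstream of the start, and replicate 2 had neither a peak of the wider set nor an FDR interval there. The 4 others were between 0.445 and 0.547. Bases at an FDR of 0.05 or less numbered 2528 in replicate 1 and 756 in replicate 2, against 12241 and 7943 in the shorter window of Hnf4a.

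**Figure D4:**
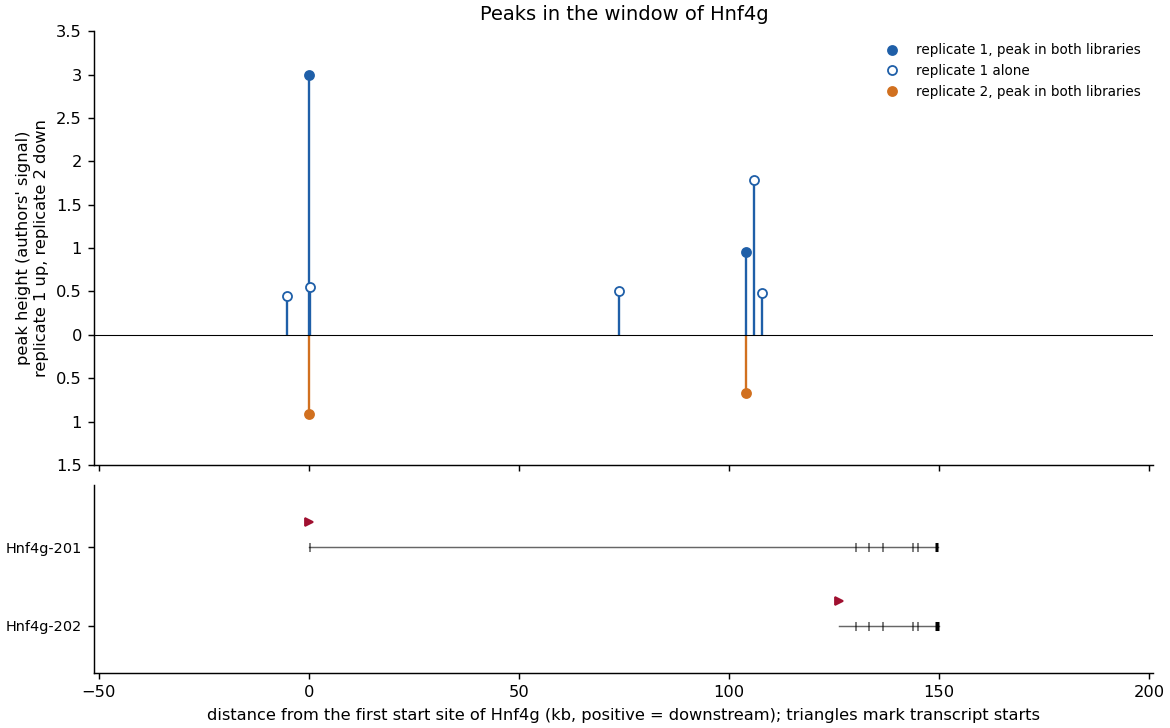
Peak heights (authors' signal; replicate 1 upward, replicate 2 downward) against distance from the first start of Hnf4g in kb, with points as for Hnf4a and the 2 transcripts below. The start and a region 104 kb downstream carry the 2 shared regions, and no peak stands at the second start, 126 kb downstream.

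Most but not all footprints lay wholly inside a peak of their library. Those inside a peak numbered 72 in replicate 1 and 46 in replicate 2 for Hnf4a, and 15 and 4 for Hnf4g. The window of Hnf4a held 108 footprints in replicate 1 and 73 in replicate 2. Of those of replicate 1, 47 (43.5%) matched one of replicate 2 over at least 50% of the shorter. Counted from replicate 2, 68.5% were matched, as 1 footprint can match more than 1 of the other library. The window of Hnf4g held 19 and 5. Of those of replicate 1, 3 (15.8%) were matched, and of those of replicate 2, 80%. Genome-wide, 33.8% of the footprints of replicate 1 and 60.3% of those of replicate 2 were matched. All 14 shared regions of Hnf4a and both of Hnf4g had a footprint in each library, as did 90.1% of all shared regions. A matched footprint was in 13 of 14 and 2 of 2, and the share of all shared regions with a matched one is not given here.

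No HNF4-type sequence was found in the members' own shared regions. The letters searched on both strands were CAAAGTCCA, CAAAGGTCA and the DR1 repeat of AGGTCA. None was present in the central 200 bases of the 14 shared regions of Hnf4a or of the 2 of Hnf4g, where 2.72% of all shared regions had one, and none in the full width of these regions. With so few regions, none among them is near that background. The letters caaaggtca occurred in 2 regions of the Hnf4a window that were open in replicate 1 alone, 28.2 kb and 51.5 kb downstream of P1, outside any footprint. Absence of these letters says nothing about whether HNF4 proteins bind there.

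The members' strongest promoter peaks were modest beside those of other genes with open promoters. The 60.7% of protein-coding genes with a peak within 1 kb of a start in both libraries had strongest promoter peaks with median heights of 8.26 and 5.37. The strongest of Hnf4a was P1 in replicate 1 (6.1) and the third start in replicate 2 (4.42), and exceeded 37.8% and 42.9% of these genes. That of Hnf4g exceeded 16.4% and 5.45%.

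Receptors that bind the same DR1-type sites had open promoters in 10 of 11 cases, against 60.7% of all protein-coding genes. The highest were Nr2c2, which encodes the orphan receptor TR4 (25.3 and 20.3 in replicates 1 and 2), Ppard, a fatty acid sensor (18.4 and 9.95), and Rxrb, a retinoid X receptor (13.6 and 11.4). Nr2f1, which encodes COUP-TFI, had no promoter peak in either library. Of this list the strongest promoter peak of Hnf4a was most like that of Nr2c1 and then Rxra. Their heights were 7.16 and 4.43, and 6.11 and 3.7, with summed percentile differences of 1.83 and 3.47 over the 2 libraries. This order mixes starts, as the Hnf4a peak was P1 in replicate 1 and the third start in replicate 2. P1 on its own was above 90.5% and 80.8% of peaks, against 90.5% and 81.2% for Rxra and 92.3% and 84.7% for Nr2c1. The promoter of Hnf4g was most like Rxrg (2.58 and 1.57, 32.4) and Nr2f2 (3.57 and 2.48, 49.9), which is a distant match. Coregulators of nuclear receptors were open in 14 of 15 cases, against the same 60.7%. The highest were Ncoa2 (25.7 and 20.2), Prmt1 (21.9 and 24.8) and Ep300 (16.2 and 12.2). Nr0b2, the corepressor SHP, had a peak in replicate 1 alone, 0.761 high.

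Genes of the proximal tubule described as dependent on HNF4A were open in 10 of 12 cases, against 60.7% of all protein-coding genes. Lrp2, Cubn and Slc34a1 of this list were also among the markers of kidney epithelium. The highest were Pck1, the gluconeogenic enzyme PEPCK (9.76 and 8.14), Lrp2, the endocytic receptor megalin (7.46 and 5.11), and Ehhadh, a peroxisomal enzyme of fatty acid oxidation (6.83 and 4.95). Slc22a6, the organic anion transporter OAT1, had a peak of 1.85 in replicate 1 alone, and Slc22a8, the transporter OAT3, had none. Classical HNF4A targets of liver were open in 4 of 12 cases, against the same 60.7%. The highest were Apoc3 (3.54 and 2.43), Apoa2 (2.77 and 2.21) and Apob (2.1 and 1.12), all apolipoproteins. A further 3 had a peak in replicate 1 alone. The remaining 5, Apoa1, Ttr, F9, Tat and Cyp7a1, had none in either library. An HNF4-type match in a shared region within the gene or 10 kb was found for 3 of 11 receptors, 2 of 15 coregulators, 2 of 12 tubule genes and 3 of 12 liver targets, and for neither member, against 6.91% of protein-coding genes. The 6.91% also counts genes without a shared region that could hold a match. Gene length and number of shared regions were not matched, so these shares are not like for like. Apoa1, Apoa4 and Apoc3, the liver targets with a match, are neighbours in 1 gene cluster, and the windows around them can hold the same site.

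**Figure D5:**
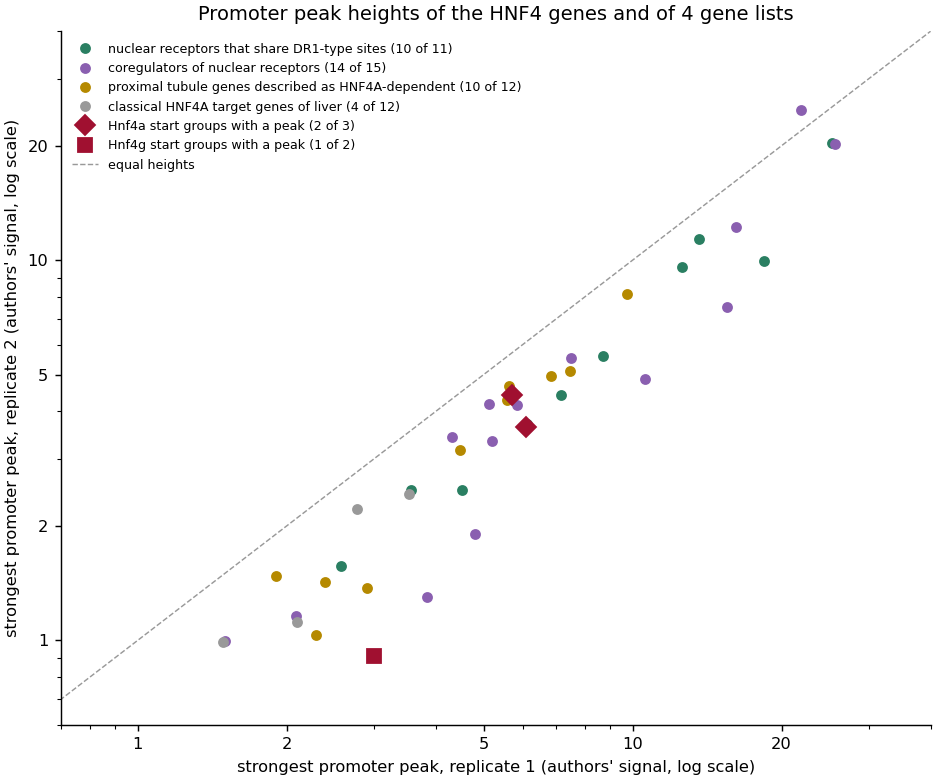
Strongest promoter peak in replicate 2 against replicate 1 (authors' signal, log axes) for genes of the 4 lists with a peak in both libraries, with the open start-site groups of Hnf4a (diamonds) and Hnf4g (square). The Hnf4a starts lie among the receptors and tubule genes, and Hnf4g lies farther below the line of equal heights than the Hnf4a starts.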

How the data were processed

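DNase-seq of mouse kidney, 2 libraries labelled as biological replicates, was used as deposited, per library, on mm10. For alignment and peak finding, tools and versions were not given in the sources used here, and read totals were not analysed here. In the authors' peak files the height is a signal value whose scale is not stated, and it was used to describe and rank peaks. The deposited FDR files hold a p-value-like false discovery rate per interval, all at 0.05 or less. The deposited footprints all carry 0.01, read here as a cutoff on a p-value or rate, and no score of their own. Of 2 peak sets per library, the stricter, with fewer peaks, was the main set and the other served as an alternative.

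Genes and starts came from GENCODE M21, and letters from the RefSeq copy of GRCm38.p6. Peaks were shared at an overlap of 1 base or more, a promoter was 1 kb on either side of any start, and 19 motifs were searched as exact letters on both strands in the central 200 bp of regions. Named regions were, per member, the 6 shared regions with the highest mean rank, the highest peak that was not shared and all peaks at starts. Named genes were up to 3 per list with the highest mean rank and those without a peak where at most 5 were. Other regions and sequences were named after their values were seen. Members, lists and rules were chosen with earlier results of these data known. Overlap, grouping and motif steps were tested on simulated data. Python 3.11.15, numpy 2.4.6, pandas 2.3.3, pyfaidx 0.9.0.4 and matplotlib 3.10.9 were used. Reads by allele were not analysed here.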

Additional observations from a re-analysis of the deposited data

How the results depend on the processing

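Each of 21 results was recomputed under its alternatives, 100 in all. Of these, 80 left the value near that reported and 20 moved it. Near meant within a fixed ratio for counts, and within 1 standard deviation of the 2 libraries for heights and percentiles. A reversal was not scored. Some alternatives could not move the value: with 0 HNF4-type matches in shared regions, those on footprints had to stay at 0. For Hnf4a the 14 shared regions became 24 with the wider peak set, 7 with flanks of 10 kb and 7 in the gene body alone, and 15 to 29 peaks were counted with 1 library left out. Its density, above 75.1% of genes, became above 86.1% with the wider set, 84.2% with the stronger 50% of peaks and 76.6% to 87.2% with 1 library left out. With flanks of 10 kb it was lower, above 68.8% of genes, and in the gene body alone above 73.7%. For Hnf4g the 2 shared regions became 0 among the stronger 50% of peaks and 2 to 7 with 1 library left out, and its density, above 19% of genes, became above 15.3% with the wider set, 0% with the stronger peaks, 27.4% with flanks of 10 kb, 37.9% in the gene body alone and 18.6% to 21.4% with 1 library left out. The open start of Hnf4g also dropped out of the stronger 50% of peaks (0 start groups in place of 1), and its bases in common at the FDR limit fell from 552 to 322 at 0.001. Matched footprints of replicate 1 fell from 47 to 27 for Hnf4a when only those inside a peak counted. For Hnf4g they rose from 3 to 5 when 1 shared base was enough. Liver targets with a promoter peak in both libraries fell from 4 to 2 among the stronger peaks and were 4 to 7 with 1 library left out. Under every alternative run for the starts of Hnf4a, 2 groups had a peak in every library used. P2 and the second start of Hnf4g gave no height to recompute. No paired analysis was possible because there is 1 group. Read depth is unknown, so a missing peak in 1 library means not detected.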
